A study of Mus musculus with 4 samples.

Results

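Trp53 and 9 genes that the p53 protein is known to switch on were followed in mouse gastric organoids in which Trp53 itself is named as knocked out. The 10 genes, Trp53, Cdkn1a, Mdm2, Ccng1, Zmat3, Phlda3, Eda2r, Bax, Bbc3 and Plk2, were taken by gene symbol from the 45777 genes in the files, and all 10 were found. Gastric organoids are stomach epithelial cells grown in a gel. The lines CPS1 and CPS4 carry the genotype label Smad4 Knockout and are described as knocked out for Cdh1, Trp53 and Smad4, and they are called Smad4 Knockout 1 and 2 here. The lines CPE and CPG carry the genotype label Control and are described as knocked out for Cdh1 and Trp53, and they are called Control 1 and 2. The stated knockout of Cdh1 and Trp53 is thus shared by all 4 libraries, and the groups differ by that of Smad4. All lines were kept for 2 days before harvest in B27 and N2 medium with neither serum nor L-WRN conditioned medium. Each genotype was represented by 2 libraries of separately named lines. The labels do not say whether these lines came from separate animals or whether one genotype was derived from the other, so p-values measure only the spread between these 4 libraries.

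The p53 protein is a transcription factor that accumulates after DNA damage and other stress and binds a short palindromic sequence near its target genes. Its targets stop the cell cycle, start apoptosis, or feed back on p53 itself through Mdm2, a ubiquitin ligase that marks p53 for degradation. Many of these genes also have promoters that work without p53, and their transcripts can then be present where p53 is absent. Loss of p53 is frequent in gastric cancer. The Smad4 protein joins receptor-activated SMAD proteins in the response to TGF-beta and BMP, and in other cells Cdkn1a is a known target of both p53 and SMAD proteins.

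The libraries held 85649781 and 96402585 counts in the Smad4 knockouts and 99845702 and 92334224 counts in the controls. Smad4, the gene that separates the groups, was at 12.7 and 11.7 TPM in the Smad4 knockouts and at 19.9 and 23.1 TPM in the controls (log2 fold change -0.88, SE 0.10, edgeR adjusted p = 0.677), so its transcript remained. TPM, a transcript abundance scaled to the same total in each library, is a level corrected for gene length. Of 15 gastric and simple epithelial markers 13 had counts in at least 1 library, and their summed level was 9563 and 9207 TPM in the Smad4 knockouts against 9140 and 8774 TPM in the controls. Epcam, Krt8, Krt18 and Krt19, markers of simple epithelium, made up most of it, so the sum says little about the other markers of the list. Pgc and Cblif, markers of chief cells in the mouse, were at 0 in all 4 libraries. The share of counts from mitochondrial genes was 0.954% and 1.48% in the Smad4 knockouts and 0.941% and 1.18% in the controls.

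The sequence that p53 recognises was looked for in the promoters of these genes, to show the letters by which such targets are recognised. The motif was the p53 consensus decamer, which reads the same on both strands, in windows of 300 bases from 250 before to 50 after each annotated start (RefSeq, GRCm38). The promoter table held 12 windows for 9 of the 10 genes, with Zmat3 not among them. A decamer was found in 5 of these 12 windows, those of Cdkn1a, Mdm2, Ccng1, Bax and Trp53, that is in 41.7% of them, against 8.36% of all 32851 windows. Only exact matches to the consensus were counted and marked. A pair of such decamers at most 13 bases apart was found in the window of Cdkn1a and in 0.0731% of all windows. The stretches of 60 bases around the decamers are shown 5′ to 3′ on the strand of the gene, with the decamers in capitals.
Cdkn1a (chr17:29090892-29090951, plus strand): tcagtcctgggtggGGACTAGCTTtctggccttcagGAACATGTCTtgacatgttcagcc
Mdm2 (chr10:117710910-117710969, minus strand): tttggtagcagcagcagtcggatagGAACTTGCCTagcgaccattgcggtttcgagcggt
Ccng1 (chr11:40755437-40755496, minus strand): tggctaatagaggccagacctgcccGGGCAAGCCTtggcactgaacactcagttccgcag
Bax (chr7:45467065-45467124, minus strand): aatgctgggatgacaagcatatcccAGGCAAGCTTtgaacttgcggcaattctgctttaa
Trp53 (chr11:69580259-69580318, plus strand): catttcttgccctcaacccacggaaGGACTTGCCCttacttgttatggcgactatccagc
The decamers of Cdkn1a begin 73 and 51 bases before its upstream start and are 12 bases apart. The second of them begins 2841 bases before the other annotated start of Cdkn1a. The letters that directly follow this second decamer, tgacatgttc, depart from the consensus only at their first letter and were left unmarked. The marked pair is therefore not the only possible pair in this window. Those of Mdm2, Ccng1, Bax and Trp53 begin 186, 185, 201 and 75 bases before their starts. No decamer was found in the windows of Phlda3, Eda2r, Bbc3 or Plk2. A match is a description of the letters in these windows, and where p53 binds was not measured.

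Trp53 transcript was present in every library. Trp53 (gene ID 22059, chromosome 11, 69580348 to 69591873 in build GRCm38, or mm10) had 469 and 455 counts in the Smad4 knockouts and 477 and 647 counts in the controls. Its level was 4.35 and 3.45 TPM in the Smad4 knockouts, against 3.56 and 5.46 TPM in the controls. Control 2 was the highest and Smad4 Knockout 2 the lowest, and the groups overlapped. Its mean over the 4 libraries, 4.21 TPM, lay at the 57.5th percentile of all genes with a TPM above 0 in any library. The edgeR log2 fold change of the Smad4 knockouts over the controls was -0.23 (SE 0.25, 95% interval -0.84 to 0.38, edgeR adjusted p = 0.963). The difference between the 2 controls was larger, at 0.52 on the log2 scale, and without Control 2 the log2 fold change was 0.05. The pseudogene Trp53-ps was at 0 counts in all 4 libraries, which allows up to 3 counts in each.

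Gene counts do not show which exons the reads came from, and no library with intact Trp53 was analysed here. The level of Trp53 therefore does not check its knockout, since an edited gene can still be transcribed. In bulk samples fewer cells of a type and less RNA per cell cannot be told apart either. Markers of fibroblasts summed to 0.575 and 0.291 TPM over 9 genes in the Smad4 knockouts and to 0.655 and 1.04 TPM in the controls. Among them Pdgfrb and Lum were at 0 in all 4 libraries. The 7 immune markers summed to 5.40 and 5.01 TPM in the Smad4 knockouts against 4.75 and 4.68 TPM in the controls, with Cd3e at 0 throughout. Most of that sum came from Cd68, a marker of macrophages and of lysosomes, at 5.10 and 4.82 TPM in the Smad4 knockouts against 4.49 and 4.30 TPM in the controls. Ptprc, the common leukocyte marker, named here after its values were seen, was at 0.0998 and 0.0997 TPM in the Smad4 knockouts against 0.136 and 0.220 TPM in the controls. The 5 endothelial markers summed to 1.46 and 1.05 TPM in the Smad4 knockouts against 1.63 and 1.63 TPM in the controls. The part of such cells in the level of Trp53 was not tested.

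Among the other members of the p53 family, Trp63 encodes p63, which binds similar sequences and is known from basal and squamous epithelium. Trp63 had 16 and 15 counts in the Smad4 knockouts and 10 and 0 counts in the controls, at most 0.0565 TPM in any library. Trp73, which encodes p73, had 0 counts in all 4 libraries, which allows up to 3 counts in each.

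The p53 targets were at very different levels in these organoids. From the highest to the lowest mean over the 4 libraries, the order was Plk2 (189.8 TPM), Bax (64.2 TPM), Ccng1 (48.8 TPM), Mdm2 (33.1 TPM), Phlda3 (7.02 TPM), Bbc3 (4.88 TPM), Zmat3 (4.72 TPM), Trp53 (4.21 TPM), Cdkn1a (1.47 TPM) and Eda2r (0.0911 TPM). Plk2, Bax, Ccng1 and Mdm2 were apart from each other and from the rest in every library. Phlda3, Bbc3, Zmat3 and Trp53 overlapped with their neighbours in this order, so their places among themselves do not differ beyond the spread over libraries. Cdkn1a was below all of these and above Eda2r in every library. Plk2 lay at the 97.5th percentile of genes with a TPM above 0, Cdkn1a at the 49.5th and Eda2r at the 25.2nd.

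**Figure D1:**
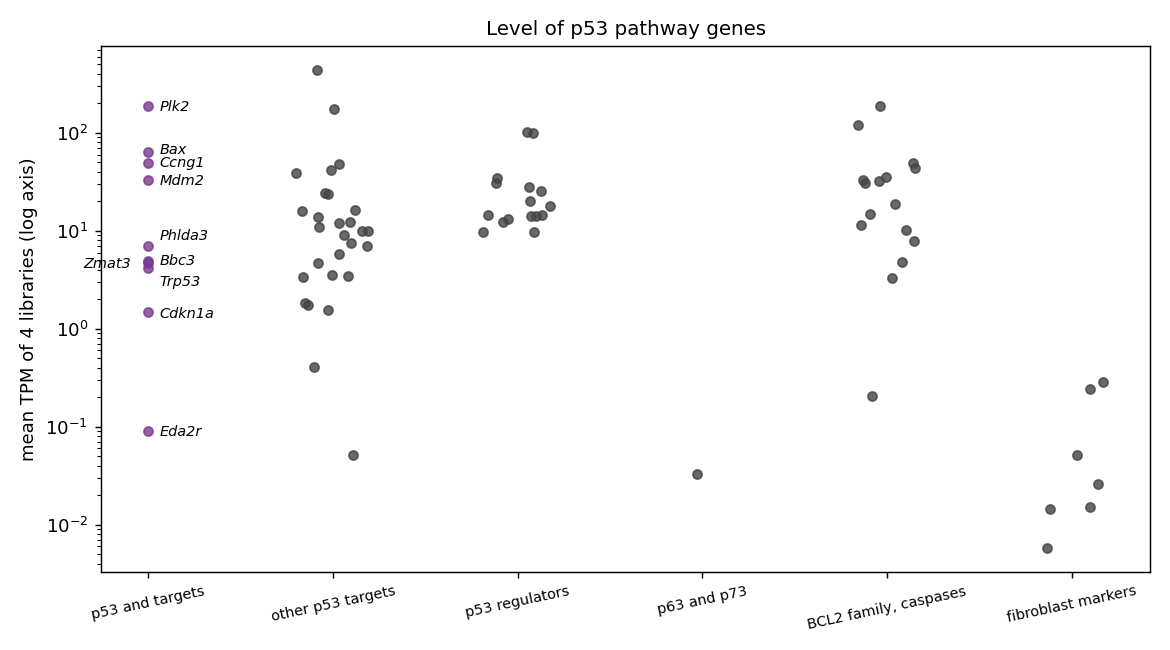
Mean TPM of the 4 libraries on a log axis for the 10 genes, for 4 other groups of p53 pathway genes and for fibroblast markers, 1 point per gene (genes at 0 in all libraries, such as Trp73, are not drawn). Plk2 lies highest of the 10 genes at 189.8 TPM, Cdkn1a is at 1.47 TPM, and p63 and fibroblast markers lie below 1 TPM.

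Cdkn1a, Ccng1 and Plk2 act on the cell cycle. Cdkn1a (gene ID 12575, chromosome 17, 29090979 to 29100722) encodes p21, an inhibitor of cyclin-dependent kinases through which p53 stops cells before DNA replication. It had 168 and 115 counts in the Smad4 knockouts and 191 and 176 counts in the controls. Its level was 1.73 and 0.958 TPM in the Smad4 knockouts and 1.58 and 1.62 TPM in the controls. Smad4 Knockout 2 alone stood low, and Smad4 Knockout 1 was the highest of the 4 in TPM and within the range of the controls in CPM. Between genotypes the log2 fold change was -0.30 (SE 0.35, 95% interval -1.16 to 0.56, edgeR adjusted p = 0.965), and it was 0.03 when Smad4 Knockout 2 was left out and -0.70 when Smad4 Knockout 1 was. In GENCODE an annotated transcript on the opposite strand shares 273 of the 3553 exon bases of Cdkn1a, and the sources used here do not say whether counting used strand, so the few reads of Cdkn1a may include others.

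Ccng1 (gene ID 12450, chromosome 11, 40748552 to 40755309) encodes cyclin G1, which takes part in the feedback on Mdm2. It was at 48.8 and 46.9 TPM in the Smad4 knockouts and at 50.5 and 49.1 TPM in the controls. Both knockout libraries lay below both controls, by a margin under the distance between the controls. In edgeR the log2 fold change was -0.09 (SE 0.10, 95% interval -0.35 to 0.16, edgeR adjusted p = 0.963), and it ranged from -0.16 to -0.02 with 1 library left out.

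Plk2 (gene ID 20620, chromosome 13, 110395044 to 110400844) encodes a polo-like kinase with a role in centriole duplication. It was at 212.5 and 151.6 TPM in the Smad4 knockouts and at 197.6 and 197.5 TPM in the controls. The controls were nearly equal, and the knockout libraries lay on either side of them in TPM. The fitted log2 fold change was -0.16 (SE 0.15, 95% interval -0.52 to 0.20, edgeR adjusted p = 0.943). Without Smad4 Knockout 2 it was 0.03, and without Smad4 Knockout 1 it was -0.37.

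Mdm2 (gene ID 17246, chromosome 10, 117688875 to 117710758), the gene of the ligase that degrades p53, was at 32.7 and 28.0 TPM in the Smad4 knockouts and at 34.8 and 37.0 TPM in the controls. Both knockout libraries were below both controls. In CPM, that is counts scaled for library size but not for gene length, it averaged 64.7 ± 4.30 in the Smad4 knockouts and 74.4 ± 2.71 in the controls (SD, n = 2 each). The log2 fold change was -0.20 (SE 0.11, 95% interval -0.46 to 0.06, edgeR adjusted p = 0.840), and it was -0.12 without Smad4 Knockout 2.

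Bax, Bbc3 and Eda2r act in cell death. Bax (gene ID 12028, chromosome 7, 45461695 to 45466903) encodes the protein that opens the outer mitochondrial membrane. It was at 66.9 and 62.2 TPM in the Smad4 knockouts and at 62.7 and 65.0 TPM in the controls. The groups overlapped, and the highest of the 4 libraries was 1.07 times the lowest, close to the 1.08 times of Ccng1. Between genotypes the log2 fold change was -0.02 (SE 0.11, 95% interval -0.29 to 0.25, edgeR adjusted p = 0.995). In GENCODE the gene Gm45808 shares 192 of the 1576 exon bases of Bax on the same strand, so some of its counts may be shared.

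Bbc3 (gene ID 170770, chromosome 7, 16308398 to 16318334) encodes PUMA, a BH3-only protein that releases Bax from its inhibitors, and it had the smallest edgeR p-value of the 10 genes. It had 461 and 433 counts in the Smad4 knockouts and 632 and 630 counts in the controls. Its level was 4.97 and 3.64 TPM in the Smad4 knockouts and 5.11 and 5.78 TPM in the controls. Both knockout libraries were below both controls, Smad4 Knockout 1 by a small margin in TPM and by a wider one in CPM, where the values were 5.33 and 4.47 against 6.45 and 6.80. In edgeR the log2 fold change was -0.44 (SE 0.20, 95% interval -0.92 to 0.05, edgeR adjusted p = 0.819). Leaving out each library in turn gave log2 fold changes from -0.57 to -0.30.

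Eda2r (gene ID 245527, chromosome X, 97333837 to 97377234) encodes a receptor of the TNF receptor family. It had 0 and 66 counts in the Smad4 knockouts and 15 and 36 counts in the controls, that is 0 and 0.224 TPM against 0.0363 and 0.105 TPM. Both the lowest and the highest library were Smad4 knockouts. The 0 counts of Smad4 Knockout 1 allow up to 3 counts, or 0.0350 CPM, while Smad4 Knockout 2 was at 0.681 CPM. The fitted log2 fold change was 0.34 (SE 1.73, 95% interval -3.90 to 4.57, edgeR adjusted p = 0.995), and the difference between the knockout libraries was larger.

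Zmat3 and Phlda3 act on RNA and on Akt. Zmat3 (gene ID 22401, chromosome 3, 32334792 to 32365665) encodes a zinc finger protein that binds RNA and affects splicing. It was at 5.48 and 4.12 TPM in the Smad4 knockouts and at 3.21 and 6.09 TPM in the controls. The controls were the lowest and the highest library, with a difference of 0.83 on the log2 scale between them, and the highest library was 1.90 times the lowest. The log2 fold change between genotypes was 0.02 (SE 0.28, 95% interval -0.67 to 0.71, edgeR adjusted p = 0.997), and it was -0.34 without Control 1 and 0.49 without Control 2.

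Phlda3 (gene ID 27280, chromosome 1, 135766085 to 135769134) encodes a small pleckstrin homology protein that keeps Akt from the membrane. It was at 8.24 and 5.62 TPM in the Smad4 knockouts and at 7.42 and 6.79 TPM in the controls. The knockout libraries lay on either side of the controls. The fitted log2 fold change was -0.08 (SE 0.23, 95% interval -0.64 to 0.48, edgeR adjusted p = 0.995), and it ranged from -0.32 without Smad4 Knockout 1 to 0.14 without Smad4 Knockout 2.

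**Figure D2:**
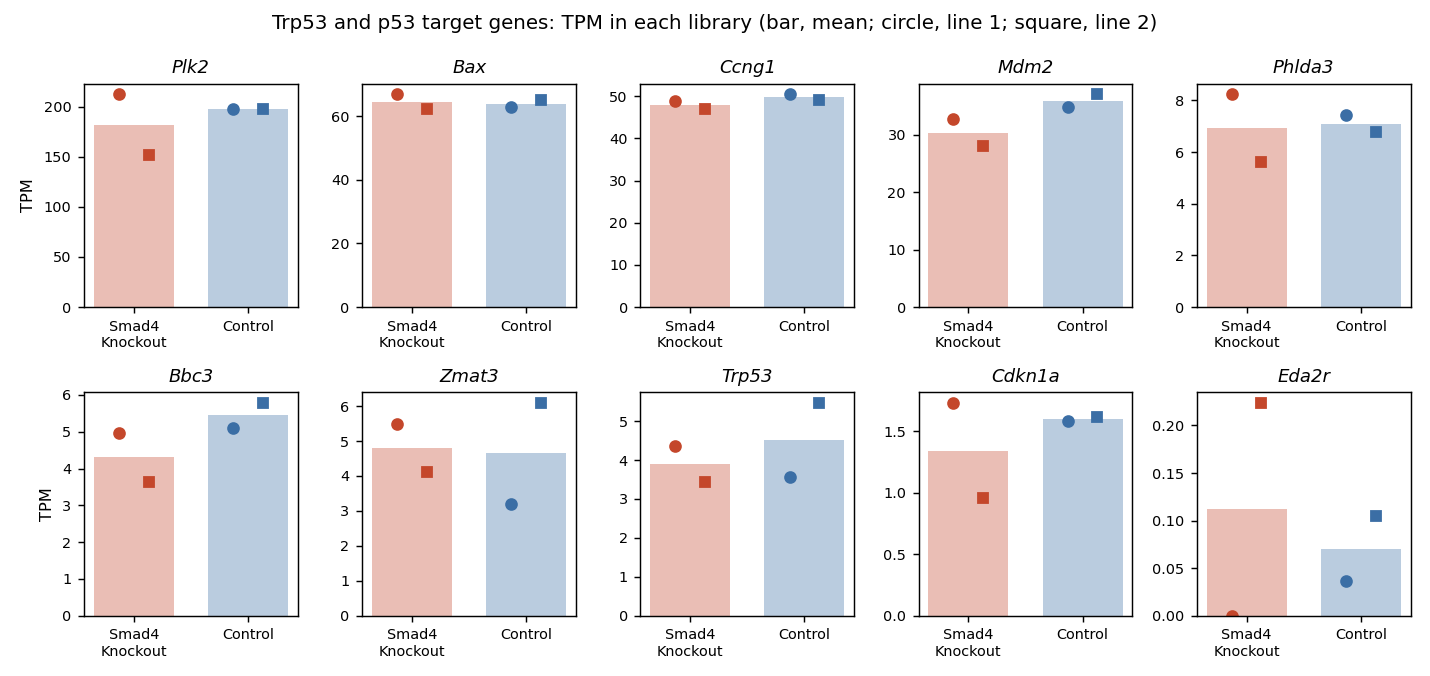
TPM of the 10 genes, 1 panel per gene with its own axis from 0, with Smad4 Knockout left of Control. Points are libraries (circle, line 1; square, line 2) and bars are the means of 2 libraries. Smad4 Knockout 2 is the lowest of the 4 libraries in 8 panels, all but those of Zmat3 and Eda2r.

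The comparison of the Smad4 knockouts with the controls called 0 of the 10 genes in edgeR's quasi-likelihood test over 18115 genes at an adjusted p of 0.05, where 0% of all genes were called. At an unadjusted p under 0.05 it was 0 of 10, against 6.36% of all genes. DESeq2 also called 0 of the 10 genes, against 0.701% of all genes, and limma on TPM called 0 of the 9 that it tested, against 0% of all genes. All 10 passed the filter on low counts, Eda2r with 66 and 36 counts in 2 libraries and 15 and 0 in the others. The log2 fold change was below 0 for 8 of the 10 genes, against 50.5% of all genes tested, and the median was -0.13, against 0.00 over all genes. In CPM both knockout libraries were below both controls for 3 of the 10 genes, Bbc3, Mdm2 and Ccng1, against 18.6% of all genes, and above them for 0 of the 10, against 18.2%. The difference between 2 libraries of the same genotype exceeded that between the genotypes for 8 of the 10 genes, and for 75.7% of all genes tested.

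The knockout libraries differed in how far they lay from the controls. Relative to the mean of the controls, the median log2 difference of the 10 genes was -0.06 in Smad4 Knockout 1 and -0.29 in Smad4 Knockout 2, where the median over all genes was 0.01 in each. In a count made after the values were seen, Smad4 Knockout 2 was the lowest of the 4 libraries in TPM for 8 of the 10 genes, against 30.9% of all genes tested, and in CPM for 6 of the 10, against 27.2%. Control 1 was the lowest in TPM for 1 of the 10 genes, against 32.3% of all genes. Without Smad4 Knockout 2 the median log2 fold change of the 10 genes was -0.06, and 6 of them were below 0. Without Smad4 Knockout 1 it was -0.30, and 9 were below 0. Smad4 Knockout 2 was also the library with the highest share of mitochondrial counts, 1.48%, and the part of that in these differences was not tested.

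**Figure D3:**
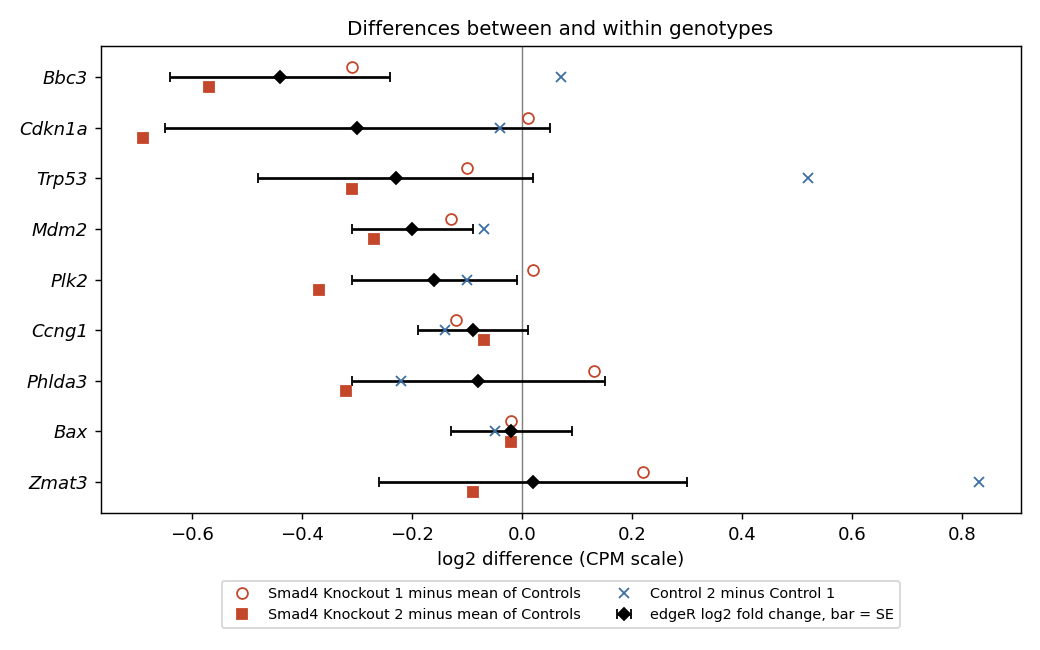
Log2 differences on the CPM scale for 9 genes (Eda2r, at 0 counts in 1 library, is not drawn), ordered by the edgeR log2 fold change of the Smad4 knockouts over the controls (diamond, with its SE). Circles and squares give Smad4 Knockout 1 and 2 minus the mean of the controls, and crosses give Control 2 minus Control 1. Smad4 Knockout 2 lies left of 0 for each gene drawn, and the crosses of Trp53 (0.52) and Zmat3 (0.83) lie further from 0 than any other mark in their rows.

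Other p53 targets were taken from a list of 28 genes, all of which were tested. Of these 0 passed the edgeR test, against 0% of all genes, and 0 passed in DESeq2, against 0.701%. An unadjusted edgeR p under 0.05 was seen for 1 higher and 1 lower gene, Ephx1 and Sesn2, against 6.36% of all genes in either direction. The log2 fold change was above 0 for 15 and below 0 for 13, with a median of 0.01. In CPM the groups did not overlap for 12 of them, of which 6 were higher and 6 lower in the Smad4 knockouts, against 18.2% of all genes higher and 18.6% lower. Ephx1, Sesn2 and Btg2 had the smallest p-values of the list, whose log2 fold changes differ in sign.

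Ephx1, an epoxide hydrolase of xenobiotic metabolism, was at 25.05 and 34.8 TPM in the Smad4 knockouts and at 16.2 and 19.7 TPM in the controls (log2 fold change 0.72, SE 0.21, edgeR adjusted p = 0.677). Sesn2, a stress protein that restrains mTORC1, was at 3.74 and 4.05 TPM in the Smad4 knockouts and at 5.15 and 5.87 TPM in the controls (log2 fold change -0.53, SE 0.18, edgeR adjusted p = 0.703). Btg2, an antiproliferative protein, was at 15.3 and 23.1 TPM in the Smad4 knockouts and at 14.0 and 12.6 TPM in the controls (log2 fold change 0.50, SE 0.24, edgeR adjusted p = 0.825), and without Smad4 Knockout 2 its log2 fold change was 0.13. For Ephx1 and Sesn2 the groups did not overlap, and for Btg2 they overlapped in CPM. The list had its highest level in Rps27l, a ribosomal protein paralog whose reads may be shared with related genes, at 478.1 and 457.5 TPM in the Smad4 knockouts against 421.8 and 403.8 TPM in the controls (edgeR adjusted p = 0.895).

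Of 16 genes that act on p53 all were tested. In edgeR 0 of them passed, against 0% of all genes, and in DESeq2 0 passed, against 0.701%. At an unadjusted edgeR p under 0.05 there were 2, Cdkn2a and Usp7, both lower, against 6.36% of all genes in either direction. Of the list 8 were above and 8 below 0, with a median log2 fold change of 0.02. In CPM the groups did not overlap for 10 of them, of which 6 were higher and 4 lower in the Smad4 knockouts, beside the shares of 18.2% and 18.6% over all genes. Cdkn2a, whose locus encodes both the CDK inhibitor p16 and the Mdm2 inhibitor Arf and is counted here as 1 gene, was among the most abundant. It was at 91.3 and 91.1 TPM in the Smad4 knockouts and at 104.9 and 109.7 TPM in the controls (log2 fold change -0.27, SE 0.10, edgeR adjusted p = 0.764). Usp7, a deubiquitinase of Mdm2 and p53, had the highest mean level of the list, at 101.6 and 86.4 TPM in the Smad4 knockouts and 102.6 and 115.0 TPM in the controls (log2 fold change -0.25, SE 0.10, edgeR adjusted p = 0.785). Mdm4, the partner of Mdm2 that blocks p53, was at 11.1 and 9.96 TPM in the Smad4 knockouts and at 8.70 and 9.003 TPM in the controls (log2 fold change 0.21, SE 0.11, edgeR adjusted p = 0.832). In all 3 genes the groups did not overlap.

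The 16 genes of the BCL2 family and the caspases, which act beside and after Bax and Bbc3, were all tested. In edgeR 0 of them passed, against 0% of all genes, and in DESeq2 0 passed, against 0.701%. At an unadjusted edgeR p under 0.05 there were 0, against 6.36% of all genes in either direction. Of the 16 genes 7 were above and 9 below 0, with a median log2 fold change of -0.02. In CPM 3 were higher and 2 lower without overlap, where 18.2% of all genes were higher and 18.6% lower. Bmf, a BH3-only protein, was at 5.46 and 5.30 TPM in the Smad4 knockouts and at 3.99 and 4.46 TPM in the controls (log2 fold change 0.29, SE 0.14, edgeR adjusted p = 0.831). Apaf1, the scaffold of the apoptosome and a known p53 target, was at 16.6 and 15.5 TPM in the Smad4 knockouts and at 13.7 and 13.3 TPM in the controls (log2 fold change 0.21, SE 0.11, edgeR adjusted p = 0.837). Bcl2l1, which encodes the survival protein Bcl-xL, was at 44.2 and 38.3 TPM in the Smad4 knockouts and at 45.7 and 47.1 TPM in the controls (log2 fold change -0.20, SE 0.11, edgeR adjusted p = 0.840).

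**Figure D4:**
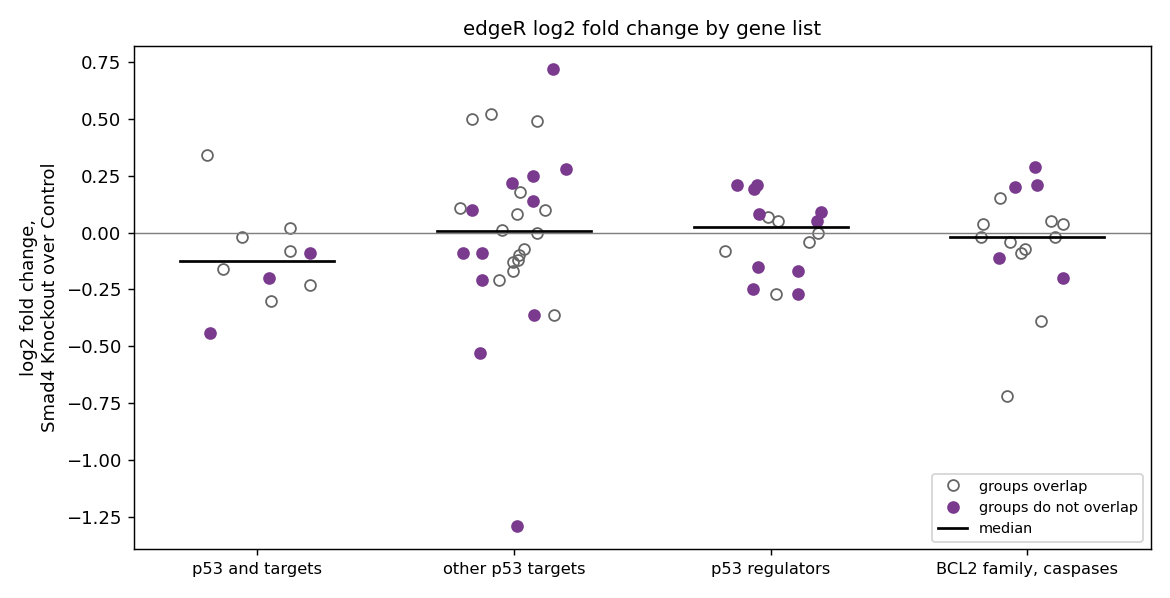
edgeR log2 fold change of the Smad4 knockouts over the controls for each tested gene of 4 lists, with the list median as a line. Filled points are genes whose groups do not overlap in CPM. The medians are -0.13 for p53 and its 9 targets, 0.01 for other p53 targets, 0.02 for p53 regulators and -0.02 for the BCL2 family and caspases.

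The profiles over the 4 libraries were also compared with those of 61 tested genes in these other lists, by the root mean square distance of log2 CPM after each gene was centred on its mean. Closest to Trp53 were Ddit4l (0.06), Pidd1 (0.11) and Trp53inp1 (0.12), against a median distance of 0.28 to all 61. These encode an inhibitor of mTORC1, the scaffold of the PIDDosome and a stress protein that acts with p53. Closest to Cdkn1a were Gdf15 (0.14), Bik (0.16) and Pmaip1 (0.16), against a median of 0.34. Gdf15 encodes a stress cytokine, and Bik and Pmaip1 encode BH3-only proteins. With 4 libraries such likeness is a description only.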

How the data were processed

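The libraries were made with a stranded kit that removes ribosomal RNA, per the labels' protocols. The tools named in the submitters' processing notes are HISAT2 2.1.0, StringTie 2.1.3b, Trimmomatic and bcl2fastq 2.20.0, with mm10 as the build. How strand was treated in counting, and how reads were counted, is not stated in the sources used here. The deposited files give whole-number counts per gene, treated as estimated counts, and TPM computed by the authors, per the file headers. The columns of Control 2 carry its title with an added 2. A total of 5 FPKM columns were not used.

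The main test was edgeR 4.0.16 (quasi-likelihood F-test, TMM, filterByExpr with a minimum count of 10) in R 4.3.3 on genotype alone, adjusted by Benjamini-Hochberg over 18115 genes. Standard errors follow from the F statistic. CPM uses TMM-scaled library sizes, and log2 CPM differences between libraries a prior count of 2. The common dispersion of 0.0680 equals a coefficient of variation of 26.1%. The smallest two-sided p of an exact permutation of 2 against 2 libraries is 0.333, so none was run. Limits for 0 counts cover counting error only. Alternatives were RLE size factors, no filter, DESeq2 1.42.0, limma 3.58.1 on log2(TPM + 1) or log2(TPM + 0.1) where 2 or more libraries reached a TPM of 1, and leaving out each library. The tests were tried on simulated data, whose outcome is not given here. Since edgeR did not call Smad4 either (edgeR adjusted p = 0.677), 0 calls do not show that levels are equal.

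The 10 genes and the other lists were chosen with earlier results of these data known. Beside the 10 genes, the rule named the 3 genes with the smallest p and the most abundant gene of each list, the targeted genes, and the genes closest in profile. Some markers of cell types are named where they are at 0 or most abundant, and items that this rule named but that are withheld are not reported here. All 108 listed names matched the files, 1 of them by an older symbol. Cdh1, named as knocked out in all lines, was at 11.8 and 15.8 TPM in the Smad4 knockouts and 10.8 and 9.76 TPM in the controls.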

Additional observations from a re-analysis of the deposited data

How the results depend on the processing

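None of the 10 genes, and no gene of the lists of other p53 targets, p53 regulators or BCL2 family and caspases, was called under the 9 alternatives run. Over all genes edgeR called 0, DESeq2 called 127 (96 higher and 31 lower), and leaving out 1 library gave from 0 to 92 calls, with 92 without Smad4 Knockout 1 and 1 without Control 1. With limma at either pseudocount 7 of the 9 genes that it tested had a log2 fold change below 0. Under the other alternatives from 6 to 9 of the 10 genes did. The sign of 7 genes changed with a library left out. The log2 fold change then ranged from -0.46 to 0.05 for Trp53, from -0.70 to 0.03 for Cdkn1a, from -0.34 to 0.49 for Zmat3, from -0.32 to 0.14 for Phlda3, from -0.37 to 0.03 for Plk2, from -0.04 to 0.01 for Bax and from -7.65 to 1.33 for Eda2r, where the lowest value sets 0 counts against the controls. Bax was at 0.01 with limma on TPM at either pseudocount, and Eda2r was below the TPM filter there. Bbc3, Mdm2 and Ccng1 were below 0 under each alternative. Ranked by CPM in place of TPM, 4 of the 10 genes kept their place, and Ccng1 and Mdm2 came before Bax, since CPM is not corrected for length. A lone library left in a group was assumed to vary like the other group. No paired analysis was possible because the labels do not say which control line, if any, belongs with which knockout line.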
